A study of Mus musculus with 18 samples.

Results

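Among the cells of the mouse stomach profiled with Quartz-Seq2 from corpus and antrum together (dataset 1), the cluster numbered 4-15 in the authors' annotation held the dividing isthmus-like cells. These were 53 of the 491 cells kept in dataset 1 and of the 4484 kept in the whole series, and they were taken by that cluster number alone. In Quartz-Seq2 single cells are sorted into the wells of a plate, and each captured transcript carries a unique molecular identifier (UMI) so that copies made by amplification are not counted again. The mice were 10-week-old wild-type C57BL/6J males, and each of 2 biological replicates was a pool of 3 mice sorted into 3 plates. Because both regions of a pool went through the sorter as 1 suspension, no label gives the region of a single cell. The pools were prepared by different operators, so mice and operator cannot be told apart. Dataset 2, used here for comparison, came from the corpus of 2 further pools of 3 mice, called K and T, and its 5 isthmus clusters held 1285 cells.

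Gastric units are tubular glands whose cells are renewed from the isthmus, a narrow zone of dividing progenitors. In the corpus, cells leaving the isthmus upward become mucous pit (foveolar) cells that secrete MUC5AC, gastrokines and TFF1, and those leaving downward become neck cells that secrete MUC6 and TFF2, which go on to pepsinogen-secreting chief cells. Acid-secreting parietal cells also arise there. Antral units are shorter, have pit and deep mucous cells but few parietal cells, and depend on the homeobox factor PDX1.

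The 53 cells came from all 6 plates, 22 from pool 1 and 31 from pool 2, and made up 8.62% to 12.5% of the kept cells of a plate. They used 46 different well barcodes, of which 7 were seen on more than 1 plate, since every plate uses the same set. The shallowest cell of the cluster held 7096 UMIs, the median cell 57489 and the deepest 105302, and 8029 genes were detected in the median cell. The median was 47455 UMIs in corpus pre-pit cells, 38964.5 in antrum pre-pit cells, 29072 in neck cells and 64127 in parietal cells. Summed over cells, the cluster held 1337148 UMIs in pool 1 and 1695019 in pool 2. Markers of other tissue cells were close to 0: 47 of the 53 cells had no UMI of 9 stromal and endothelial genes and 52 had none of 7 leukocyte genes. No cell lacked UMIs of the 11 parietal genes, which had a median of 23 UMIs a cell. The highest cell, of pool 2, had 170 UMIs over 10 of these genes, and the next highest cell had 54. Wells were gated for single cells by the authors, and doublets were not called again here.

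The markers given for dividing cells were high in the cluster. *Mki67* (GRCm39 chromosome 7, 135291513 to 135318299), the proliferation antigen Ki-67, stood at 255 and 277 CPM in pools 1 and 2, where CPM is the UMI count of a cluster scaled to 1000000 UMIs with TMM factors. The next highest cluster, antrum pre-pit, had 35.9 and 28.5 CPM, so the level was 8.25-fold higher in the dividing cells. *Hmgb2* (chromosome 8, 57964687 to 57969276), a chromatin protein of cycling cells, was at 292 and 318 CPM, 10.9-fold above antrum pre-pit cells. *Stmn1* (chromosome 4, 134195021 to 134201882), a microtubule regulator, was low at 23.6 and 30.5 CPM and had a UMI in 36 of the 53 cells. Its next highest level, in neck cells, differed between the pools (2.83 and 13.9 CPM). At least 3 UMIs of *Mki67* were found in 44 of the 53 cells, against 4 of 46 corpus pre-pit, 4 of 32 antrum pre-pit and 3 of 45 neck cells. The authors' Seurat scores put 19 of the cells in S phase (35.8%, 95% exact binomial interval 23.1 to 50.2) and 34 in G2/M. None was called G1, with an upper limit of 6.72%. The S share was 6 of 22 cells in pool 1 and 13 of 31 in pool 2. Intervals given for shares cover counting error only.

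Counts were added up within each cluster and pool, and the dividing cells were set against corpus mature pit (cluster 8), corpus pre-pit (2), antrum mature pit (1), antrum pre-pit (6), neck (3) and parietal (0) cells. The clusters were drawn by the authors from these same counts. Calls between clusters therefore describe how far they lie apart beyond the spread of the 2 pools, and are no test of the clustering. Of 10229 genes, 24.1% were called higher and 16.5% lower in the dividing cells than in the mean of the other 6 clusters (edgeR's quasi-likelihood test, Benjamini-Hochberg adjusted p under 0.05). A stricter description is the share of genes whose 2 dividing sums lay above all 12 other sums, which was 9.39% of all genes tested. In all 4153 genes were called, and 2604 when pool 2 of the dividing cells was left out.

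The genes of mitosis were the clearest feature. All 44 listed genes of spindle, kinetochore, cytokinesis and mitotic control were tested, all 44 were called higher and all 44 lay above the 12 other sums. Their median log2 difference was 6.34, against 0.04 over all genes. Together they reached 6248 and 5468 CPM in the pools, against 730.2 and 404 CPM in antrum pre-pit cells, the next highest. *Ube2c*, the ubiquitin-conjugating enzyme of the anaphase-promoting complex, was at 672 and 566 CPM and *Cdk1*, the kinase that drives entry into mitosis, at 340.0 and 335 CPM. The next highest cluster had 69.2 and 89.7 CPM of *Ube2c* (antrum pre-pit) and 8.49 and 23.2 CPM of *Cdk1* (neck). *Top2a*, the topoisomerase that separates sister chromatids, was at 359.7 and 398 CPM and stood 16.1-fold above neck cells, its next highest cluster. *Aurkb*, the kinase of the chromosomal passenger complex, was at 125 and 147 CPM and *Racgap1*, needed for cytokinesis, at 207 and 186 CPM. *Prr11*, a gene expressed late in the cell cycle, showed the largest difference among all genes that met the naming rule, with 46.5 and 47.01 CPM in the dividing cells, 2.12 and 0 CPM in corpus pre-pit cells and no UMI in the other 5 clusters. The helicase gene *Pif1* was at 24.2 and 14.0 CPM (66 UMIs) and had no UMI in any of the 6 other clusters. Also among the 10 largest differences were *Aspm* (44.6 and 37.01 CPM), *Kif4* (61.1 and 46.5), *Ckap2l* (75.8 and 67.5), *Ttk* (44.6 and 41.5), *Anln* (78.9 and 88.5) and *Sgo1* (48.4 and 42.01), which encode proteins of spindle, centromere and cleavage furrow. Antrum pre-pit cells did not approach these levels, although their mitotic genes summed to more than those of corpus pre-pit cells (300.3 and 271 CPM).

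Genes of DNA replication were higher as well, but with smaller gaps. Of 40 listed genes, 39 were tested, all 39 were called higher (median log2 difference 2.95) and 38 lay above all other sums. Their sum was 3286 and 4048 CPM in the dividing cells and 959.6 and 1559 CPM in neck cells. *Pcna*, the sliding clamp of the replication fork, was at 286 and 391 CPM against 115 and 165 CPM in corpus pre-pit cells, a 2.42-fold difference. *Rrm1*, a subunit of ribonucleotide reductase, was at 202 and 246 CPM against 60.2 and 56.04 in corpus pre-pit cells, and *Tk1*, thymidine kinase, at 202 and 205 against 37.2 and 20.4 in antrum pre-pit cells. Of the replicative helicase, *Mcm6* was at 161 and 225 CPM against 75.8 and 95.7 in corpus pre-pit cells, and *Mcm7* at 115 and 155 CPM against 43.9 and 71.3 in neck cells. *Mcm3*, of the same helicase, was at 105 and 142 CPM against 53.8 and 84.3 in neck cells. The helicase genes thus ran below their dividing-cell level, but well above 0, in clusters that carried few mitotic transcripts. Those clusters also held cells called S, 14 of 45 neck and 9 of 46 corpus pre-pit cells. The part of the S cells in these levels was not tested. For chromatin replication, 23 of 23 genes were called higher and above all other sums, among them the condensin gene *Smc4* (224 and 221 CPM against 22.6 and 29.6 in neck cells), the histone variant gene *H2ax* (257 and 269.6 CPM against 19.8 and 36.1 in neck cells), the methylation adaptor *Uhrf1* (85.3 and 106 against 11.3 and 29.6) and *Dnmt1*, the maintenance methyltransferase (108 and 143 against 50.95 and 50.02). Ribosome biogenesis genes were called higher in 21 of 21 cases, by a median of only 1.28 on the log2 scale, and 15 lay above all other sums. The nucleolar genes *Npm1* and *Ncl* led the list. *Npm1* was at 692 and 802 CPM against 521 and 606 in neck cells, a difference that was not called, and *Ncl* was at 442 and 501 CPM, against 245 and 279 in neck cells.

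**Figure D1:**
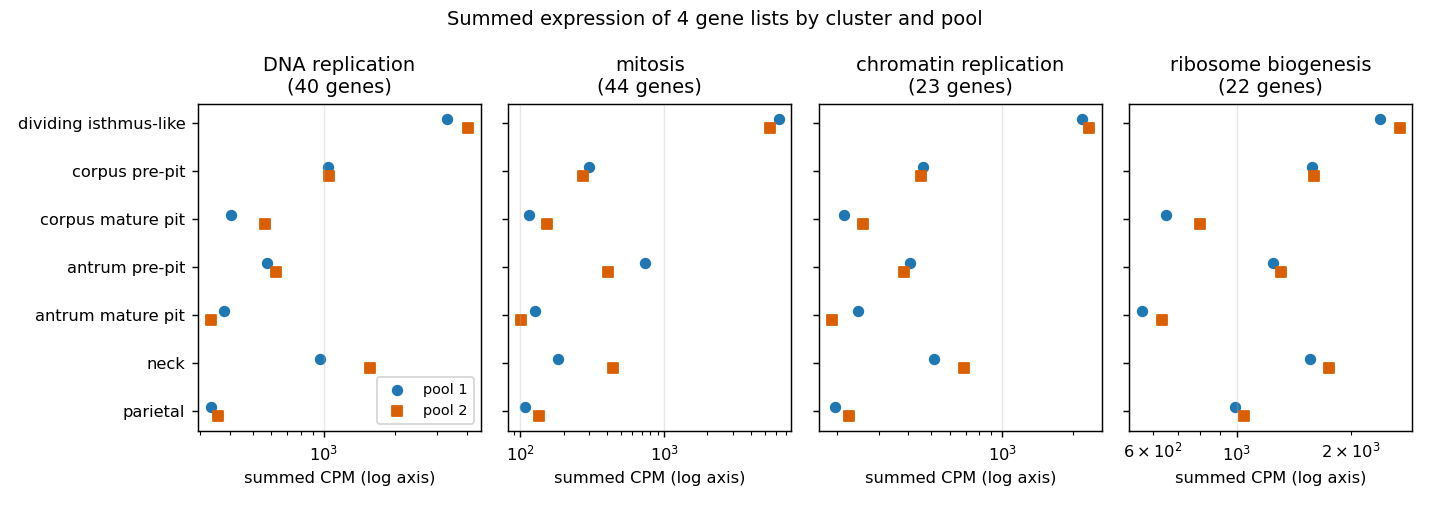
Summed CPM of 4 gene lists (log axis) in the 7 epithelial clusters of dataset 1, with a point for each of the 2 pools. The dividing cells lie above every other cluster in all 4 panels, most clearly for the mitosis genes at 6248 and 5468 CPM.

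The promoters of 2 mitotic and 2 replication genes are shown because their genes were higher in the dividing cells than in every other cluster and they hold motifs known from cell cycle promoters. The cell cycle homology region (CHR, searched as TTTGAA on both strands) and the CCAAT box (CCAAT on both strands) are bound in genes of G2 and mitosis. E2F sites (searched as TTTCCCGC, TTTGGCGC, TTTCGCGC and TTTGCCGC on both strands) are bound in genes of G1 and S. The sequences are the 250 bases before the RefSeq start on GRCm38.p6, 5′ to 3′ on the gene's strand. Capitals mark CHR and CCAAT boxes in *Ube2c* and *Top2a* and E2F sites in *Mcm6* and *Mcm7*, whose CCAAT boxes (as ATTGG) stand in lower case. Overlapping matches run together, as the CCAAT boxes of both strands do in *Ube2c* and a pair of E2F sites in *Mcm6*.
Ube2c, chr2:164769679-164769928, plus strand: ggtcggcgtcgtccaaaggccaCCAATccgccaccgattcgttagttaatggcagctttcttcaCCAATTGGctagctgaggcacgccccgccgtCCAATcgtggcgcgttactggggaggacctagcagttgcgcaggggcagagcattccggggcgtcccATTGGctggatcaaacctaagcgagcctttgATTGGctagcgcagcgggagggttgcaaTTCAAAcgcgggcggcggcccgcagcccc
Top2a, chr11:99024190-99024439, minus strand: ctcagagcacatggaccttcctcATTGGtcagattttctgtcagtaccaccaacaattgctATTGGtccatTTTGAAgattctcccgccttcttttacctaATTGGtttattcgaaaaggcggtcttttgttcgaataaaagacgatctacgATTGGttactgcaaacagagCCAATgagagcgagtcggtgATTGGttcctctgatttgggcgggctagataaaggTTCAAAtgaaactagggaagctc
Mcm6, chr1:128359706-128359955, minus strand: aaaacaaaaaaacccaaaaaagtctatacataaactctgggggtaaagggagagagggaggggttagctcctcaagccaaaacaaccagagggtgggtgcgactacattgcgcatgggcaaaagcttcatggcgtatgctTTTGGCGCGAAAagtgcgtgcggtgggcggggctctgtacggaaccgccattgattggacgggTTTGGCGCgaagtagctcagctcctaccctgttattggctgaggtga
Mcm7, chr5:138171884-138172133, minus strand: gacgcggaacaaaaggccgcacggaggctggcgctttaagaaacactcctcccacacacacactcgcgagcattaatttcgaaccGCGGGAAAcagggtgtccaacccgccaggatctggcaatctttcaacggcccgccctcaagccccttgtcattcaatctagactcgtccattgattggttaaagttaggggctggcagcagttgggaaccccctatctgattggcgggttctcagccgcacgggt
In this window, 18.3% of the 27025 genes with a listed promoter held a CHR, 37.5% a CCAAT box, 7.34% both and 2.16% an E2F site. A gene with several promoters was counted if any of them held the motif. Of the 44 mitosis genes 36 had a listed promoter, of which 33.3% held a CHR, 69.4% a CCAAT box, 27.8% both and 8.33% an E2F site. Of the 40 replication genes 33 were matched, of which 24.2% held an E2F site, 63.6% a CCAAT box, 15.2% a CHR and 12.1% both of the last 2. Of the 23 chromatin genes 20 were matched, of which 7 held a CHR, 15 a CCAAT box, 7 both and 5 an E2F site. Of the 11 matched pit genes 1 held a CHR, 4 a CCAAT box and 0 an E2F site. These are letter matches and say nothing of binding in these cells.

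G1 regulators and inhibitors of cyclin-dependent kinases moved less uniformly. Of 17 listed G1 cyclins, kinases and E2F factors, 14 were tested and 12 called higher, but only 7 lay above all other sums. *Ccne1*, the cyclin of S phase entry, was at 25.5 and 23.0 CPM against 5.66 and 12.04 in neck cells, and *E2f1* at 19.1 and 25.01 against 4.25 and 10.2. *Ccnd1*, the cyclin that responds to growth factors, stood at 127 and 151 CPM, below the 191 and 200.1 CPM of neck cells and the 164 and 167 CPM of corpus pre-pit cells, neither difference being called. *Ccnd2* was lower in the dividing cells (242 and 228 CPM) than in neck (611 and 481) and corpus pre-pit cells (479 and 339.8), both called. *Myc*, the growth regulator, was at 49.02 and 72.5 CPM, between antrum pre-pit (42.6 and 50.97) and corpus pre-pit cells (109 and 74.7), with no call against either or against neck cells.

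Among the 12 inhibitors and exit genes with a value, 4 were called higher and 1 lower, near the 24.1% and 16.5% of all genes. The gene of p21, *Cdkn1a*, was the lower one, at 34.4 and 21.5 CPM against 479 and 313 CPM in antrum mature pit, 529 and 214 in corpus mature pit and 267 and 396 in parietal cells. Neck cells had still less of it, 0 and 3.71 CPM. *Cdkn2c*, which encodes p18, was on the contrary 5.33-fold higher than in any other cluster, at 78.9 and 85.5 CPM against 14.2 and 16.7 in neck cells. *Cdkn2d*, encoding p19, was at 42.7 and 42.5 CPM, *Cdkn1b*, encoding p27, at 85.95 and 74.02 CPM and *Trp53* at 105 and 137 CPM, and all 3 were called higher. Without pool 2 of the dividing cells *Cdkn1a* was no longer called. *Btg2*, an antiproliferative gene, was at 146 and 175 CPM, close to the pit clusters and below neck cells (681 and 455 CPM).

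Within the cluster, the 19 S cells were compared with the 34 G2/M cells, summed by phase and pool (6 and 13 S cells, 16 and 18 G2/M cells). Cluster 4-15 joins 2 Seurat clusters, and all 34 G2/M cells and 8 of the S cells lay in cluster 4, while cluster 15 held only the other 11 S cells, so phase and Seurat cluster partly coincide and cannot be told apart here. The genes of Seurat's phase lists had made these calls and were left out. The rest were still measured in the cells that were scored, so the calls describe how the phases differ. Of 8542 genes, 83 (0.972%) rose in S and 77 (0.901%) rose in G2/M (edgeR's quasi-likelihood test, adjusted p under 0.05). With the pool as a block 299 were called in all, against 160 without it. Leaving out S pool 1, S pool 2 or G2/M pool 2 gave 390, 275 and 328, each fit then resting on a single sum in that phase. The loader of the replicative helicase *Cdt1* rose from 6.01 and 14.6 CPM in G2/M to 180.3 and 161 CPM in S (log2 difference 4.01, SE 0.31, adjusted p = 6.49e-05, edgeR), so that the phases did not overlap between pools. *E2f1* rose from 2.004 and 4.87 to 91.8 and 71.1 CPM (log2 4.46, SE 0.43, adjusted p = 2.21e-04, edgeR) and *Ccne1* from 10.02 and 8.76 to 98.4 and 58.5 CPM (log2 2.96, SE 0.38, adjusted p = 0.00157, edgeR). *Tcf19*, a chromatin-associated gene of the G1/S transition, rose from 41.1 and 58.4 to 315 and 261 CPM. Of the replication genes outside the phase lists, 13 of 22 rose in S (median log2 difference 1.16, against 0.00 over all genes), with *Mcm3* at 328 and 300.4 CPM in S and 65.1 and 91.5 in G2/M. Of the G1 genes 5 of 14 rose in S, which were *Ccnd1* (236 and 267 against 128 and 129 CPM), *Ccne1*, *Cdk4* (502 and 539 against 297 and 333 CPM), *E2f1* and *E2f2*, and 8 without S pool 1.

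In the other direction, 13 of 18 mitosis genes outside the phase lists were higher in G2/M (median log2 difference −1.19). Cyclin B1, *Ccnb1*, stood at 248 and 194 CPM in G2/M and 16.4 and 17.4 in S cells (log2 -3.68, SE 0.27, adjusted p = 5.64e-05, edgeR). The mitotic kinase gene *Plk1* was at 232 and 220.1 against 13.1 and 41.1 CPM, *Prr11* at 71.1 and 81.8 against 6.56 and 15.8 CPM and *Aspm* at 66.1 and 64.3 against 13.1 and 12.6 CPM. *Pif1* had no UMI in S cells and was at 38.1 and 27.3 CPM in G2/M cells. *Sectm1b* had no UMI in S cells and 21.04 and 16.6 CPM in G2/M cells, a call lost without S pool 2 or G2/M pool 1 (adjusted p = 0.0599 and 0.115, edgeR). *Sun2*, which links the nucleus to the cytoskeleton, was at 39.1 and 33.1 CPM in G2/M and 3.28 and 1.58 in S cells. Of 10 inhibitors tested, 3 were higher in G2/M, *Cdkn2d* (62.1 and 70.1 against 16.4 and 20.6 CPM), *Cdkn1b* (116 and 110.0 against 62.3 and 55.3) and *Btg2* (196 and 257 against 108 and 136). Of 16 chromatin genes, *Dnmt1* and *Tcf19* rose in S while *H2ax* (364 and 449 against 131 and 123 CPM) and *Ncapg* rose in G2/M. Of the lineage genes, 0 of 12 pit genes and 1 of 10 neck genes were called, the latter higher in G2/M. In simulated data this fit called 11.1% of 2-fold and 71.2% of 4-fold changes, so lineage genes that were not called may still differ. The simulation gave every gene the same dispersion (spread between sums), so these rates need not hold for genes that spread more. *Muc5ac* was at 1675 and 3756 CPM in S and 3479 and 3584 in G2/M cells (adjusted p = 0.597, edgeR), and its S sums spread more between pools than the phases differed. S cells were somewhat shallower, with a median of 50030 UMIs against 63117.5 in G2/M, and the part of depth in these calls was not tested.

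**Figure D2:**
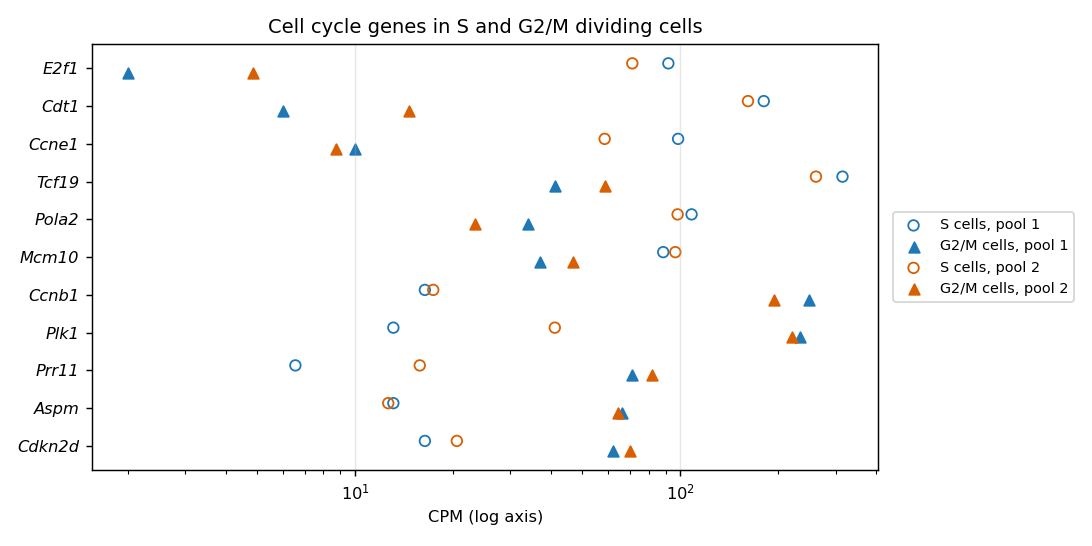
CPM (log axis) of 11 genes outside Seurat's phase lists in S cells (open circles) and G2/M cells (triangles) of the dividing cluster, with a symbol for each of the 2 pools. The S and G2/M symbols of E2f1, Cdt1 and Ccnb1 lie apart in both pools, E2f1 at 91.8 and 71.1 against 2.004 and 4.87 CPM.

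Genes of the pit lineage were expressed in the dividing cells at a fraction of the level of pit cells. The 13 listed pit genes summed to 52169 and 45144 CPM, against 83909 and 99598 in antrum pre-pit, 125823 and 156395 in corpus pre-pit and 3186 and 1878 in neck cells. None was called higher than in corpus or antrum pre-pit cells, while 11 and 9 were called lower, where 20.4% and 23.6% of all genes were called. Against neck cells 10 were called higher and 0 lower, where 29.3% of all genes were called. *Gkn2*, a gastrokine of all pit cells, was at 13737 and 12124 CPM, against 24322 and 31149.7 in antrum pre-pit and 38573 and 51035 in corpus pre-pit cells. *Muc5ac* (chromosome 7, 141342709 to 141372968), the surface mucin, was at 2536 and 3029 CPM, nearer to antrum pre-pit cells with 3702 and 3941, and neck cells had 16.98 and 17.6 CPM. *Tff1*, the trefoil peptide of pit mucus, was at 22677 and 18161 CPM and *Gkn1* at 12004 and 10637. Regulators of pit cells were low, with *Foxa3* at 64.9 and 51.5 CPM against 234 and 234 in antrum mature pit cells and the lipid-sensing receptor gene *Pparg* at 56.03 and 60.01 against 287 and 285.

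Among the listed neck genes only *Tff2* was near the level of neck cells. The 10 neck genes summed to 19487 and 20883 CPM in the dividing and 26395 and 30961 CPM in neck cells. Of the 10, 9 were called lower than in neck cells, the exception being *Tff2*, where 29.3% of all genes were called in either direction. *Tff2*, the trefoil peptide of mucous neck cells, reached 17528 and 19646 CPM in the dividing cells and 16251 and 19665 in neck cells, and antrum pre-pit cells had 20749 and 22165 CPM. By contrast *Muc6* (chromosome 7, 141213373 to 141241641), the gland mucin, was at 129 and 84.5 CPM against 1792 and 2349 in neck cells. The water channel gene *Aqp5* (48.4 and 9.002 against 174 and 321 CPM) and the gastrokine gene *Gkn3* (873 and 273 against 5575 and 6396) differed between the pools of dividing cells by more than any other neck gene named here. Both also followed the region classes given below. *Aqp5* was at 123 and 28.5 CPM in antrum-marked and 3.32 and 1.20 in corpus-marked dividing cells, and *Gkn3* at 2190 and 994 against 89.5 and 8.42, neither called. Neck cells of dataset 1 may come from either region. The zinc finger factor gene *Klf5* was at 344 and 339 CPM against 665 and 518 in neck cells. *Sox9*, a progenitor transcription factor, was at 192 and 222 CPM, against 811 and 734 in neck and 188 and 160.0 in corpus pre-pit cells. Of the chief cell genes, pepsinogen C (*Pgc*) was abundant at 15210.0 and 25005 CPM, against 98030.3 and 81746 in neck and 9369 and 9202 in corpus pre-pit cells, whereas *Cblif*, encoding gastric intrinsic factor, was almost absent (5.09 and 1.0 CPM against 2169.7 and 1608). Among parietal genes the chloride channel gene *Clic6* had the highest level, 96.1 and 121 CPM, which was like that of corpus pre-pit cells (111 and 119) and far from the parietal 2881 and 3342 CPM. The proton pump subunit genes *Atp4a* (9.55 and 57.5 CPM) and *Atp4b* (16.6 and 33.01) were at traces of the parietal levels of 19983 and 20385 and 18124 and 18314 CPM. The pool 2 sums include the cell with 170 UMIs of parietal genes, and its part in them was not tested.

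Single cells carried these lineage genes unevenly. A cell was taken to carry *Muc5ac* above 0.505 UMIs per 10000 of its UMIs, the 95th percentile of parietal cells, and *Muc6* with any UMI, by the same percentile. *Muc5ac* was carried by 41 of 53 dividing cells (77.4%, exact interval 63.8 to 87.7) and *Muc6* by 24 (45.3%, 31.6 to 59.6). Both were carried by 14 cells (26.4%, 15.3 to 40.3), 6 of 22 in pool 1 and 8 of 31 in pool 2, and neither by 2 cells. Cells with both made up 6.52% of corpus pre-pit, 6.25% of antrum pre-pit, 6.67% of neck and 1.75% of parietal cells. The threshold for *Muc6* is a single UMI, so its share moves with depth, which was higher in the dividing than in the neck and pre-pit cells. For *Muc5ac* no dividing cell lay between 0.483 and 6.98 UMIs per 10000, so that any threshold within this gap gives the same cells, whereas counting any UMI gives 47 of 53.

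**Figure D3:**
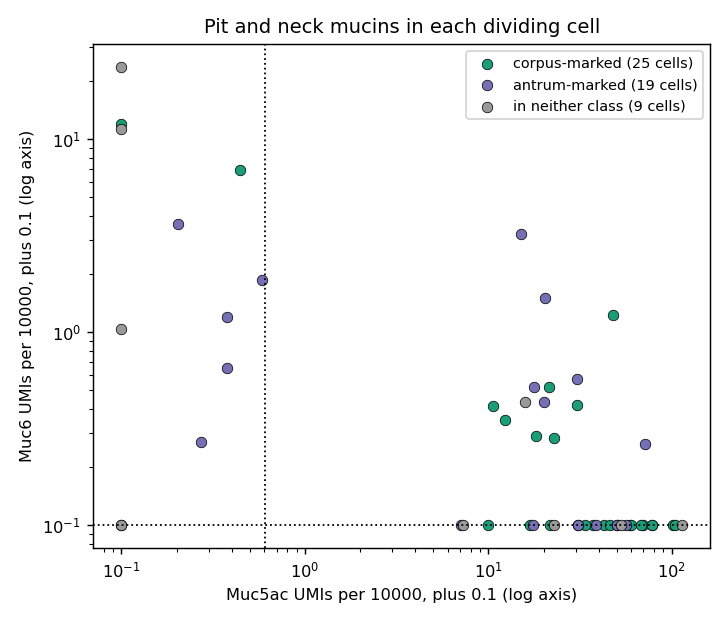
Muc5ac (x) and Muc6 (y) in UMIs per 10000 of a cell's UMIs, on log axes with a small constant added, for the 53 dividing cells coloured by their region genes; dotted lines are the thresholds from parietal cells. The 12 cells left of the gap on the x axis have at most 0.483 UMIs of Muc5ac per 10000, and the other 41 have at least 6.98.

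The 12 cells below this gap were compared with the 41 above it, as a description. They came from both pools (5 and 7 cells) and all 6 plates, had a median of 58606.5 UMIs, and included 5 S and 7 G2/M cells. Median *Gkn2* was 1.99 UMIs per 10000 below the gap and 149 above it, against 2.101 in neck and 503 in corpus pre-pit cells. Median *Tff1* was 1.31 against 325, so the medians of both pit genes followed *Muc5ac*. Single cells did not all do so, since the highest of the 12 had 62.0 UMIs of *Gkn2* and 256 of *Tff1* per 10000. *Tff2* did not, with 233 and 206 UMIs per 10000. *Pgc* ran the other way, with medians of 589 below and 156 above the gap, against 1100.3 in neck cells, and *Muc6* had a UMI in 10 of the 12 cells and in 14 of the 41. At a median of 1.43 UMIs per 10000, *Muc6* stayed below the 15.3 of neck cells. *Mki67* (3.18 and 3.29) and *Top2a* (5.45 and 4.79) had like medians on both sides. An earlier annotation deposited with the cells called 5 of the 12 neck and 6 isthmal, and of the 41 it called 36 isthmal and 0 neck.

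Of the isthmus progenitor markers the study names, *Iqgap3*, a scaffold protein gene counted here among the mitosis genes, was at 83.4 and 79.5 CPM, 17.3-fold above antrum pre-pit cells, and *Stmn1* was also highest in the dividing cells, as given above. A list of 15 other genes reported for gastric stem and progenitor cells leaves these out. Of the 15, 14 were tested, 6 were called higher than the mean of the other clusters, and 0 lay above all other sums. Of all genes, 24.1% were called higher and 9.39% lay above all other sums. Against neck cells 11 were called lower and 0 higher, where 29.3% of all genes were called in either direction. *Lgr5*, a receptor of stem cells in several epithelia, was at 2.55 and 1.5 CPM (7 UMIs) against 25.5 and 47.2 in neck cells, and the WNT target *Axin2* at 1.27 and 2.501 against 18.4 and 26.9. *Lrig1*, a brake on EGF receptors, was at 50.9 and 52.5 CPM, against 198 and 202 in parietal and 149 and 145 in neck cells. *Sox2* (33.1 and 35.01 CPM), *Runx1* (53.5 and 65.01) and *Bmi1* (25.5 and 27.5) were within the range of the other clusters. Of 14 genes of TNF and NF-kB signalling that were tested, 2 were called higher and 1 lower, where 24.1% and 16.5% of all genes were, with the inhibitor gene *Nfkbia* at 76.4 and 115 CPM against 151 and 171 in neck cells and the TWEAK receptor gene *Tnfrsf12a* at 53.5 and 107 CPM against 75.1 and 70.1 in corpus pre-pit cells. Of 11 tested genes of EGF receptors, ligands and feedback, 2 were called higher and 0 lower, against the same shares, the receptor gene *Erbb3* being at 80.2 and 66.5 CPM, below 132 and 106 in antrum mature pit cells, and the ligand gene *Btc* at 52.2 and 42.5 CPM. The medians of these 2 lists, 0.07 and 0.03 on the log2 scale, lay near the 0.04 of all genes.

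The 10 genes furthest below the other clusters each had their highest level in a mature pit cluster or in parietal cells. *Lbh*, a transcriptional regulator, was at 16.6 and 5.501 CPM against 534 and 376 in antrum mature pit cells, and *Slc16a5*, a monocarboxylate transporter gene, at 1.27 and 1.0 against 99.4 and 113 in parietal cells. *Krt20*, a keratin of differentiated surface cells, was at 2.55 and 0.5001 CPM against 975 and 705 in antrum mature pit cells. Without pool 2 of the dividing cells *Krt20* and *Rdh7* were no longer called. The others by the naming rule were *Cox7a1* (1.91 and 1.5 CPM), *Rap1gap2* (2.55 and 5.001), *Rdh7* (2.55 and 0.5001), *Fmo5* (3.18 and 2.0), *Arid3a* (1.27 and 1.0), *Parp16* (1.27 and 0) and *Sh3tc1* (0.637 and 0.5001), all under 10 UMIs over both pools except *Rap1gap2*. Their CPM levels are therefore close to the smallest that can be counted.

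By the number of genes called, the dividing cells lay nearest to corpus pre-pit cells (20.4% of genes called), followed by antrum pre-pit (23.6%), neck (29.3%), corpus mature pit (43.0%), antrum mature pit (50.8%) and parietal cells (60.3%). These counts also depend on the number of cells and UMIs in each cluster. Without pool 2 of the dividing cells 1328 genes were called against corpus pre-pit and 1498 against antrum pre-pit cells, in place of 2083 and 2416. Against corpus pre-pit cells, *Slco2a1*, a prostaglandin transporter gene, was the most strongly lower (3.82 and 1.0 against 72.95 and 56.04 CPM), followed by *Sectm1b* (13.4 and 8.502 against 119 and 184). The potassium channel subunit gene *Kcne3* was the most strongly higher, at 126 and 53.5 CPM against no UMI, and was higher still in neck cells (317 and 274 CPM). Against antrum pre-pit cells the goblet cell genes *Zg16* (0.637 and 0 against 857 and 7509 CPM) and *Tff3* (3.18 and 4.501 against 1522 and 4813) were lowest, as was the chemokine gene *Ccl6* (no UMI against 34.6 and 475 CPM). The antrum pre-pit pools themselves differed several-fold in these 3 genes. The 8 listed intestinal genes summed to 771 and 2402 CPM in antrum pre-pit and 96.3 and 128 in corpus pre-pit cells. Antrum mature pit (1129 and 1249) and parietal cells (8753 and 7669) had high sums too. Whether the antrum pre-pit cluster holds intestinal cells was not tested. Against corpus mature pit cells the oxidase gene *Duox2* (0.637 and 0.5001 against 235 and 58.4 CPM) and its maturation factor *Duoxa2* (0.637 and 0 against 177 and 29.9) were lower, and the pools of the mature cells again differed several-fold. *Mgll*, the monoacylglycerol lipase gene, was at 1.91 and 1.0 CPM against 452 and 142 in corpus mature and 18.4 and 22.2 in corpus pre-pit cells, the latter call being lost without pool 2 of the dividing cells.

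Some genes of mature clusters had no UMI at all in the 53 dividing cells. These were *Plet1* (256 and 280.4 CPM in parietal cells), the ribonuclease gene *Rnase1* (146 and 293) and the ubiquitin ligase gene *Hecw2* (148 and 195), the oestrogen-responsive receptor gene *Gper1* (42.5 and 18.5 CPM in neck cells) and the matrix link gene *Hapln4* (15.6 and 12.97), and the galactosyltransferase gene *B3galt5* (41.6 and 39.8 CPM in antrum mature pit cells). In the other direction, *Tnni2*, a troponin gene, was at 26.1 and 25.5 CPM in the dividing cells and had no UMI in neck and parietal cells, but was higher in all 4 pit clusters. *S100a10*, an annexin-binding protein gene, had no UMI in parietal cells and stood at 244 and 73.02 CPM in the dividing cells, between 38.95 and 57.2 in corpus pre-pit and 440.3 and 432 in antrum pre-pit cells.

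The character of corpus or antrum was read from 5 genes. *Krt7* (chromosome 15, 101308924 to 101328194), *Krt20* (chromosome 11, 99319227 to 99328985) and *Pdx1* (chromosome 5, 147206769 to 147212658) mark the antrum, and *Sctr*, the secretin receptor gene (chromosome 1, 119934615 to 119991268), and *Basp1* (chromosome 15, 25363350 to 25414981) mark corpus pit cells. As sums, the dividing cells carried genes of both regions. *Krt7* was at 84.04 and 38.01 CPM in pools 1 and 2, against 298 and 285 in antrum pre-pit and 11.3 and 23.4 in corpus pre-pit cells. *Pdx1* was at 24.2 and 9.002 CPM, against 47.9 and 46.9 in antrum pre-pit and 2.83 and 0 in corpus pre-pit cells. *Basp1* was at 94.9 and 165 CPM, against 256 and 260.4 in corpus pre-pit and 11.97 and 0 in antrum pre-pit cells. *Sctr* was at 21.01 and 30.01 CPM, against 97.03 and 128 and 15.96 and 10.2 in the same clusters. Other clusters also carried some of these genes. The 3 antrum genes summed to 111 and 47.5 CPM in the dividing cells, 139 and 85.5 in corpus mature pit cells, where *Krt20* made up most, and 46.7 and 25.01 in neck cells, against which none of the 3 was called. The 2 corpus genes summed to 116 and 195 CPM in the dividing and 110.0 and 35.8 in antrum mature pit cells. Pool 1 of the dividing cells was the higher for *Krt7* and *Pdx1* and pool 2 for both corpus genes. Against corpus pre-pit cells *Krt7* and *Pdx1* were called higher and *Sctr* lower, and against antrum pre-pit cells *Krt7* and *Pdx1* were called lower and *Basp1* higher. *Krt20* was nearly absent, as above, and antrum pre-pit cells had 59.9 and 116 CPM of it.

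Cell by cell, *Pdx1* and *Basp1* were mostly found in different cells. The separation was not complete, since 7 cells held at least 3 UMIs each of the antrum and of the corpus genes. *Krt7* had a UMI in 34 of 53 dividing cells (64.2%), *Pdx1* in 18 (34%), *Sctr* in 24 (45.3%), *Basp1* in 30 (56.6%) and *Krt20* in 3. After thinning every cell to 10000 UMIs, which left 52 cells, the shares were 36.5% for *Krt7*, 11.5% for *Pdx1*, 9.62% for *Sctr* and 42.3% for *Basp1*. Parietal cells, taken as background, had thinned shares of 8.77% for *Krt7*, 3.51% for *Pdx1* and 7.02% for *Basp1*, and 0 of 57 for *Sctr*, with an exact upper limit of 6.27% for cells with a UMI. The exact interval of *Pdx1* in the dividing cells (4.35 to 23.4%) overlaps that of parietal cells (0.428 to 12.1%). That of *Sctr* (3.20 to 21.0%) reaches below the upper limit in parietal cells. The difference of these thinned shares from background was not tested. In the sums, 2 of the 2 corpus genes and 2 of the 3 antrum genes were called higher than in parietal cells, where 60.3% of all genes were called. In the pre-pit cells the thinned shares of *Krt7* were 68.8% in antrum and 13.6% in corpus, those of *Pdx1* 25% and 2.27%, those of *Sctr* 3.12% and 59.1%, and those of *Basp1* 3.12% and 77.3%. *Pdx1* and *Basp1* occurred together in 2 cells, *Pdx1* without *Basp1* in 16, *Basp1* without *Pdx1* in 28 and neither in 7. The *Pdx1* cells were 12 of 22 in pool 1 and 6 of 31 in pool 2.

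Each cell was then put in a region class if it had at least 3 UMIs of the antrum genes (*Krt7*, *Krt20*, *Pdx1*) or of the corpus genes (*Sctr*, *Basp1*) and more of the one set than of the other. This rule was set after the values had been seen. It called 25 dividing cells corpus-marked (47.2%, 33.3 to 61.4), 19 antrum-marked (35.8%, 23.1 to 50.2) and left 9 in neither class. Of these 9, 7 had at most 2 UMIs of either set and 2 had equal numbers of both. At least 5 UMIs of the corpus set and 0 of the antrum set were found in 15 cells, the reverse in 11, and at least 3 of both in 7. Pool 1 had 10 corpus-marked and 10 antrum-marked of 22 cells, and pool 2 had 15 and 9 of 31. The rule classed 87.0% of corpus pre-pit cells as corpus and 2.17% as antrum, and 3.12% of antrum pre-pit cells as corpus and 65.6% as antrum. The study had named *Krt7*, *Krt20*, *Sctr* and *Basp1* as region markers of pit cells from this same dataset. These shares are therefore no independent check of the rule. In parietal cells it classed 17.5% as corpus and 10.5% as antrum as found, and 3.57% and 1.79% after thinning to 20000 UMIs, where the dividing cells had 33.3% and 23.5%. In the isthmus cells of dataset 2, where no antrum was taken, it classed 55.6% as corpus and 5.06% as antrum as found, and 44.8% and 2.45% after thinning. Median depth was 37426 UMIs there and 57489 in the dividing cells of dataset 1. Both classes were found in both phases, with 9 S and 16 G2/M cells among the corpus-marked and 4 and 15 among the antrum-marked. In neck cells the 2 corpus genes summed to 11.3 and 18.5 CPM and the 3 antrum genes to 46.7 and 25.01, so the rule may miss corpus cells of neck character. Of the 10 dividing cells with *Muc6* only, 2 were corpus-marked, 5 antrum-marked and 3 in neither class. Region and lineage are thus partly mixed in these classes and were not told apart.

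**Figure D4:**
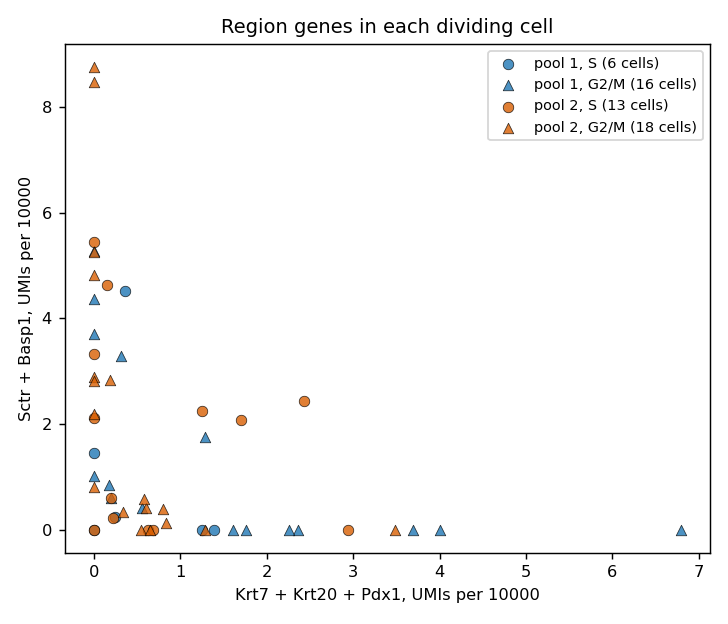
UMIs per 10000 of the antrum genes Krt7, Krt20 and Pdx1 (x) and of the corpus genes Sctr and Basp1 (y) in each of the 53 dividing cells, marked by pool and phase. Of these cells, 15 have at least 5 corpus UMIs and no antrum UMI, 11 have the reverse, and 7 have at least 3 UMIs of both sets.

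The corpus-marked and antrum-marked dividing cells were compared over all other genes, summed by class and pool. The 5 genes of the rule were left out, and since the classes were cut from the same cells after their values were seen, the calls are given as a description. Of 7800 genes, 9 (0.115%) were called higher in corpus-marked and 8 (0.103%) in antrum-marked cells (edgeR's quasi-likelihood test), and 148 in all with the pool as a block. The called genes of the antrum-marked cells included *Samd5* (175 and 76.04 CPM against 0 and 1.203 in corpus-marked cells), the homeobox gene *Nkx6-3* (106 and 49.4 against 0 and 1.203) and *Kcne3* (324 and 188 against 0 and 8.42). Corpus-marked cells held 1 UMI of *Samd5*, 1 of *Nkx6-3* and 7 of *Kcne3*, all in pool 2. The microvillus gene *Vil1* (139.8 and 95.05 against 11.6 and 19.2) and the protease genes *Klk1* (103 and 101 against 28.2 and 19.2) and *Cela1* (551 and 464 against 143 and 121) were higher in them too, as was *Ifitm2*. In the corpus-marked cells the lipid enzyme gene *Mogat1* stood at 537 and 558 CPM against 73.2 and 122 (log2 difference 2.50, SE 0.23). The aldehyde dehydrogenase gene *Aldh3a1* (841 and 538 against 141 and 85.5), *Psca* (3156 and 2693 against 478 and 888), the gasdermin gene *Gsdma2* (1711 and 1262 against 526 and 361) and *Sfta2* (54.7 and 56.5 against 1.66 and 7.604) were also higher. *2210404E10Rik* had 41.5 and 57.7 CPM in corpus-marked cells and no UMI in antrum-marked cells. The remaining 3 were *Muc5ac* (4325 and 4979 against 2239 and 2445 CPM), the metallothionein gene *Mt1* and *Cwh43*. Of the 12 cells low in *Muc5ac*, 6 were antrum-marked and 2 corpus-marked. Without these 12 cells 21 genes were called, and *Muc5ac* (log2 difference 0.46), *Cwh43*, *Cela1*, *Ifitm2* and *2210404E10Rik* were no longer among them. Leaving out 1 pool of either class gave 41 to 49 genes, except for pool 2 of the antrum-marked cells, without which 232 were called.

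Of these 17 genes, 13 were also called between the corpus and antrum pit clusters, all 13 in the same direction. In the pit clusters 384 of 10229 genes (3.75%) were called higher in corpus and 561 (5.48%) in antrum. The others were *Kcne3*, *Muc5ac*, *Cwh43* and *2210404E10Rik*. Read the other way, 327 of the genes higher in corpus pit cells had a value in the dividing cells, and 299 of them (91.4%) lay on the corpus-marked side, with a median log2 difference of 0.53. Of 430 genes higher in antrum pit cells, 347 (80.7%) lay on the antrum-marked side, with a median of −0.33. Over all 7800 genes 49.9% lay on the corpus-marked side. The dividing and pit cells share pools and plates but no cells. Without the 12 cells low in *Muc5ac* the shares were 90.2% of 316 and 82.5% of 400 genes.

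**Figure D5:**
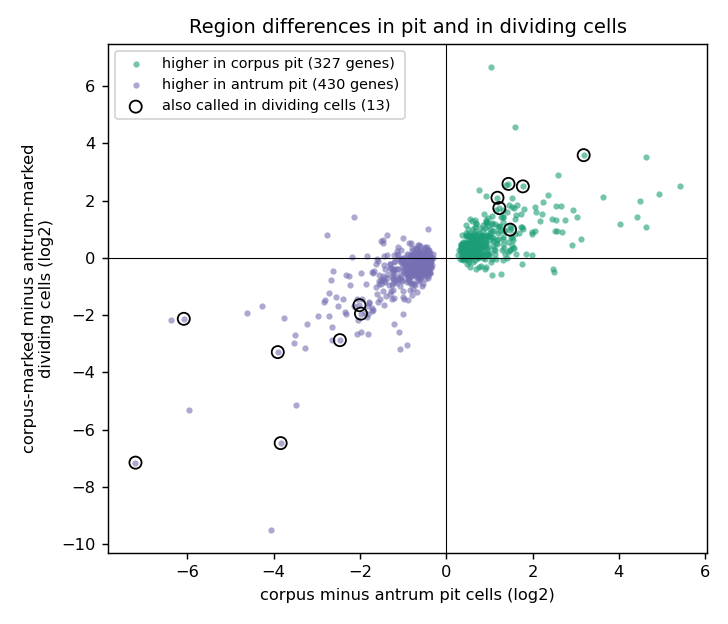
Each point is a gene, with the log2 difference of corpus minus antrum pit cells (x) against that of corpus-marked minus antrum-marked dividing cells (y). Green points are the 327 genes called higher in corpus pit cells, of which 299 lie above 0 on the y axis, purple points are the 430 called higher in antrum pit cells, of which 347 lie below 0, and circles mark the 13 genes called in both comparisons.

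The isthmus cells of dataset 2 showed what corpus cells alone carried of these genes. *Krt7* was at 85.8 and 38.9 CPM in the dividing cells of dataset 1 and 15.4 and 23.1 CPM in pools K and T, and *Pdx1* at 24.7 and 9.21 against 1.03 and 2.02. For *Basp1* the values were 96.9 and 168 and 164 and 136 CPM, and for *Sctr* 21.5 and 30.7 and 26.2 and 18.9. These levels come from a single fit over both datasets. The difference between the datasets was then taken relative to corpus mature pit, corpus pre-pit and parietal cells of the same dataset. Of 11634 genes, 72 (0.619%) differed (edgeR's quasi-likelihood test), and 163 with the pool as a block. On this relative scale neither *Krt7* (adjusted p = 0.179, edgeR) nor *Pdx1* (adjusted p = 0.542, edgeR) was called. With the block *Krt7* was (log2 difference 1.91, adjusted p = 0.0450, edgeR). *Gkn3*, at 892 and 279 against 15.2 and 63.5 CPM, was called, but not without pool 1 of the dividing cells, which held the higher level. Among genes of the cell cycle lists, 1 of 40 replication and 3 of 44 mitosis genes were called. *Pdx1* had a UMI in 57 of 1285 isthmus cells of dataset 2 (4.44%), 48 of them with *Basp1*, against 18 of 53 dividing cells of dataset 1, 2 of them with *Basp1*. The datasets differ in mice, depth and the removal of debris at the sort as well as in the region taken, and these cannot be told apart.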

How the data were processed

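Quartz-Seq2 libraries of single cells were analysed from the deposited UMI count tables. According to the study's methods, STAR alignment and the Drop-seq and FASTX toolkits turned reads into count matrices on GRCm39 and Gencode gene models, and the processing notes of the submitters name bcl2fastq 2.20.0.422. The authors gated single cells at the sort, removed wells with fewer than 2500 detected genes, clustered the rest with Seurat, and deposited for each cell the total counts, the percent of mitochondrial UMIs, cell cycle scores and labels of cluster, phase, plate and pool. No doublet caller was run here.

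Counts were added up within each cluster and pool (for S against G2/M, each phase and pool) and tested with edgeR 4.0.16 in R 4.3.3 (TMM scaling, filterByExpr, quasi-likelihood F test, Benjamini-Hochberg adjusted p under 0.05, no block). The contrast against the other clusters used 14 sums, and S against G2/M 4 sums. The scripts were tested on simulated data. Alternatives were DESeq2 1.42.0, other size factors, other filters, the plate as unit, leaving out a pool and the pool as a block. Pool numbers pair the sums, since sums of 1 number come from the same pool of 3 mice. Over 21 pairs of clusters and 3951 genes, deviations of same-numbered sums correlated between −0.064 and 0.161 (median 0.047). P-values measure the spread between 2 pools.

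Cells were thinned to 10000 or 20000 UMIs for shares, and intervals are exact Clopper-Pearson intervals (scipy 1.17.1). Coordinates are from GENCODE M39 on GRCm39, and promoters from RefSeq on GRCm38.p6, so that no promoter coordinate applies to the build of the counts. The cells, gene lists and comparisons were chosen with earlier results of these data known. Genes were named as members of these lists, highest CPM in the dividing cells first, and as the 10 (mean contrast) or 3 (other contrasts) called genes with the largest difference each way, no fewer than 10 UMIs in either pool of the higher group and the same direction in both pools. Further genes, the region classes, the split by *Muc5ac* and the genes named between region classes were named or chosen after their values were seen. Some genes are not reported here.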

Additional observations from a re-analysis of the deposited data

Results flagged for a closer look

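The difference between the dividing cells of dataset 1 and the isthmus cells of dataset 2, each relative to corpus mature pit, corpus pre-pit and parietal cells of its own dataset, was tested as an interaction (edgeR's quasi-likelihood test), and 9 named genes differed. *Mki67* differed by 2.09 on the log2 scale, with 260.1 and 283 CPM in the dividing cells and 232 and 241 in the isthmus cells, while parietal cells had 0 and 0.918 CPM in dataset 1 and 5.44 and 3.80 in dataset 2. *Muc6*, the gland mucin, differed by 3.87 although its CPM was lower in the dividing cells (131 and 86.5 against 204 and 206), since corpus mature pit cells had 1.31 and 0 CPM in dataset 1 and 39.2 and 69.4 in dataset 2. *Gkn3*, a neck cell gastrokine, differed by 4.43, at 892 and 279 against 15.2 and 63.5 CPM. Within dataset 1 it was at 2190 and 994 CPM in antrum-marked and 89.5 and 8.42 in corpus-marked dividing cells, so neck and antrum character cannot be told apart for it.

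*Chst4*, a sulfotransferase gene, differed by 6.63, with 41.6 and 51.2 against 33.5 and 29.96 CPM in the cells compared, and with no UMI in corpus mature pit cells of dataset 1 against 77.02 and 53.9 CPM in dataset 2. *Gpa33*, a surface antigen gene of intestinal epithelium, differed by 6.10, at 50.7 and 15.3 against 3.36 and 4.72 CPM. *Crip2*, a LIM domain gene, differed by 4.87, at 24.7 and 45.5 against 29.3 and 36.1 CPM. Another 3 genes differed the other way: *1600014C10Rik* by −1.99 (1.30 and 3.07 against 7.04 and 7.33 CPM), *Irs2*, an insulin receptor substrate gene, by −1.53 (14.3 and 14.8 against 27.5 and 29.1 CPM) and *Gm49890* by −1.37 (6.50 and 9.21 against 8.21 and 7.92 CPM). Without pool 1 of the dividing cells *Gpa33*, *1600014C10Rik*, *Gm49890* and *Gkn3* were no longer called, and without pool 2 *Chst4*, *Crip2*, *1600014C10Rik* and *Gm49890* were not.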

How the results depend on the processing

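No named gene that was called in the main fit changed direction under any alternative tried. Direction was not followed for summary values or for genes not called in the main fit. Of 151 alternatives to summary values 120 stayed within the limits and 31 moved. Of 1072 alternatives for named genes 1036 were counted as keeping the call, 30 lost and 6 gained it. A gene not called in the main fit counted as kept when its direction changed. DESeq2 called 2259 genes against the mean of 6 clusters, 2741 against corpus mature pit, 863 against corpus pre-pit, 3315 against antrum mature pit, 1164 against antrum pre-pit and 1458 against neck cells, fewer than edgeR in each. It called 552 between corpus and antrum pit cells, 61 between S and G2/M, 223 between the datasets and 42 between region classes. Without a filter on low counts 402 genes were called between the datasets and 377 between region classes. The cause of these shifts was not tested.

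With the pool as a block, 299 genes were called between S and G2/M, 163 between the datasets and 148 between region classes. The block moved no other count of calls by over 1.5 times. Leaving out 1 pool gave 2604 to 3235 genes against the mean of 6 clusters, 1328 to 1658 against corpus pre-pit, 1498 to 2259 against antrum pre-pit, 205 to 390 between S and G2/M and 41 to 232 between region classes, where the lone sum is assumed to vary like the others. Between region classes every alternative was chosen after seeing the data, as were the fits without the cell with intestinal genes, the 2 shallowest cells or the cells low in *Muc5ac*.

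Shares of dividing cells with a UMI moved with depth. *Krt7* was at 64.2% without thinning, *Pdx1* at 25.5% with 20000 UMIs and 34% without thinning, and *Sctr* at 31.4% and 45.3%. A threshold of 1 UMI put *Muc5ac* in 88.7% of the cells.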

Other observations

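A single dividing cell carried genes of intestinal crypts, and it was picked out after the values were seen. The cell came from pool 1, was called G2/M and held 26597 UMIs and 6505 genes. It had 52 UMIs of *Olfm4*, a marker of intestinal stem cells, 56 of *Cps1*, 105 of *Pigr*, the receptor that carries immunoglobulins across epithelia, 19 of *Smoc2* and 13 of *Fabp2*, and 1 each of *Cdx1* and *Cdx2*. The other 52 cells together held 9 UMIs of *Olfm4*, 5 of *Cps1*, 62 of *Pigr*, 8 of *Smoc2* and 0 of *Cdx1* and *Cdx2*. Gastric genes were low in it, with 4 UMIs of *Tff2*, 12 of *Tff1*, 9 of *Gkn2* and 0 of *Muc5ac*. It was antrum-marked by its region genes. Without it 4131 genes were called against the mean of 6 clusters and 21 between region classes.

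Cells called S or G2/M were also found outside the dividing cluster. Among 46 corpus pre-pit cells 9 were called S and 4 G2/M, among 45 neck cells 14 and 1, and among 32 antrum pre-pit cells 1 and 9. Of these clusters, 4, 3 and 4 cells in turn had at least 3 UMIs of *Mki67*. Of 10 tuft and endocrine genes, 35 of the dividing cells had no UMI, and the highest cell had 19 UMIs, all of the ghrelin gene *Ghrl*.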
